A study of Mus musculus with 20 samples.

Results

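Collagens are the main structural proteins of the extracellular matrix, and their genes were followed here mouse by mouse in the livers of the 4 diet groups. The members were all genes whose symbol is Col, a number, the letter a and a number, which gave 42 of the 18193 genes that a probe set of the array names alone. They fell into 11 fibrillar collagens, 6 basement membrane collagens and 25 others. Livers came from male mice of the C57BL/6J strain (the sample labels spell it C56BL/6J), 5 per group and 1 array per mouse. The CL + AX group received the CL diet with 0.02% astaxanthin and the CL + VE group the CL diet with 0.02% vitamin E. The CL group received a diet in which fat supplied 60% of the energy, with sodium cholate at 0.5% and cholesterol at 1.25%, and the NC group received normal chow (CRF-1). All mice were 7 weeks old at the start, ate their diet for 12 weeks and had no food for the last 2 h.

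Each collagen chain winds with a pair of partner chains into a triple helix. Fibrillar collagens (types I, III and V among those of the liver) pack side by side into the fibers that make up scar tissue, type IV forms the sheet-like network of basement membranes, type VI forms beaded filaments, and fibril-associated collagens such as type XIV sit on the surface of fibers. In the injured liver, hepatic stellate cells that have turned into myofibroblasts are the main source of fibrillar collagen. Whole liver was measured, so more cells of a type and more RNA per cell cannot be told apart.

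The start regions of collagen genes differ in their letters even where the genes moved the same way, and 3 of them are shown because they belong to a pair of members that rose and to the only one that fell with the CL diet. The 250 bases before the annotated start were taken from RefSeq (GRCm38.p6), with the start itself as the next base. They lie at chr6:4505368-4505617 for Col1a2, chr1:45311288-45311537 for Col3a1 and chr4:63215162-63215411 for Col27a1, all on the plus strand and written 5′ to 3′. For Col1a2 and Col3a1 this start is the first annotated base of the gene, while the Col27a1 stretch precedes a transcript start 1403 bases inside the annotated gene. Capitals mark TATAAA (the letters of the TATA box), CCAAT and GGGCGG (those of the GC box), searched on both strands. Whether a match acts as such a site was not tested.
Col1a2: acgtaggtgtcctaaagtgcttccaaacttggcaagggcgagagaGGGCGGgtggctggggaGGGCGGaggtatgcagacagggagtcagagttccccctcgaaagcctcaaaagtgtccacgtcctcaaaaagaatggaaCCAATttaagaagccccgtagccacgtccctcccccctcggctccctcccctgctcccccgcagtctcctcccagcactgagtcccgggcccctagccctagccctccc
Col3a1: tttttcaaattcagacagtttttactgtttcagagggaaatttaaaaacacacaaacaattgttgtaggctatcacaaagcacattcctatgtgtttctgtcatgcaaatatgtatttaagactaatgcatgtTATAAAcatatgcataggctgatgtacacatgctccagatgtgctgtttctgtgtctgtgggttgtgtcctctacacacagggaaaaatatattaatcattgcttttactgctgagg
Col27a1: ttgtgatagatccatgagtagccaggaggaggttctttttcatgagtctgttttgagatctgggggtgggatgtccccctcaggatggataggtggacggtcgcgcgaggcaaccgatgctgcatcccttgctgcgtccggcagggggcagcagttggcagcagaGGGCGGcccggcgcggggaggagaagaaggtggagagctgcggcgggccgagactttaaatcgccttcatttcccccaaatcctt
The Col1a2 stretch held 1 CCAAT and 2 GGGCGG, the Col3a1 stretch 1 TATAAA that begins 117 bases before the start, and the Col27a1 stretch 1 GGGCGG. RefSeq windows were at hand for 33 of the 42 collagens, in 36 windows, and no match of one motif overlapped a match of another in them. GGGCGG was found in 58.3% of the 36 collagen windows and in 6 of the 8 fibrillar ones, against 32.7% of all 32851 windows of this length. CCAAT was found in 36.1% of the collagen windows and 33.8% of all windows, and TATAAA in 13.9% and 12.4%. Col4a1 and Col4a2, the main pair of basement membrane chains, are annotated on opposite strands of chromosome 8. The start sites of their windows (11312826 and 11312805) lie 21 bases apart. The annotated Col4a1 gene reaches further than its window's start site, to base 11312889. Their signals are set side by side further on.

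Values are log2 signals after quantile normalization, where a difference of 1 is a factor of 2, and a gene was read from its brightest probe set. Of the 42 collagens, 15 had a mean at or above the median of all genes (5.63): 6 of the 11 fibrillar, 2 of the 6 basement membrane and 7 of the 25 others. The standard error (SE) of a difference between CL and NC was 0.060 to 0.40 for these 15 and 0.25 to 1.02 for the 27 dimmer collagens, so the dimmer ones were measured less precisely. Before normalization, array medians ran from 26.4 to 27.7 in CL + AX, from 17 to 20.7 in CL + VE, from 19.4 to 24.8 in CL and from 13 to 18.8 in NC. The log2 ratio of the 3′ over the 5′ control probe sets of Gapdh was -0.26 to 0.11 in the 15 mice on CL-based diets and 0.38 to 0.78 in NC, and that of Actb was 1.01 to 1.51 and 1.54 to 1.95. For Dap, a control RNA added before labelling and so not from the liver, it was 0.76 to 1.81 in the 15 mice on CL-based diets and 2.76 to 3.11 in NC. All 3 ratios set the NC arrays apart from the others, so what they measure and the diet cannot be told apart, and their part in every comparison with NC was not tested.

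Livers of CL mice had higher signals of the type I and III collagen chains Col1a1, Col1a2 and Col3a1, of the type V chain Col5a2, of the type VI chain Col6a3 and of the fibril-associated Col14a1, and a lower signal of Col27a1. In the CL group 6 of the 42 collagens passed an adjusted p of 0.05 as higher than in NC (14.3%, beside 12.0% of all genes) and 1 as lower (2.38%, beside 11.3%), by limma with Benjamini-Hochberg adjustment over all probe sets. Among the fibrillar collagens 4 of 11 were higher (Col1a1, Col1a2, Col3a1 and Col5a2) and Col27a1 was lower. None of the 6 basement membrane collagens was called. Among the other collagens 2 of 25 were higher and none was lower. The median log2 fold change was 0.35 over the fibrillar, 0.10 over the basement membrane and -0.19 over the other collagens, beside -0.04 over all genes. Relative to all genes the fibrillar median was 0.38, but it ran from -0.10 (mean of a gene's probe sets) to 1.26 (only the brighter probe sets) under other settings, and that of the other collagens from -0.18 to 0.0254, so the direction of both depended on the setting. By the methods' t-test with Benjamini-Hochberg adjustment only Col3a1 and Col14a1 passed (10.8% of all genes did), and the adjusted p of the other 5 called collagens was 0.058 (Col5a2) to 0.15 (Col1a1). All CL mice lay above all NC mice in 6 collagens (14.3%, beside 8.07% of all genes) and below them in 2 (4.76%, beside 7.85%).

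**Figure D1:**
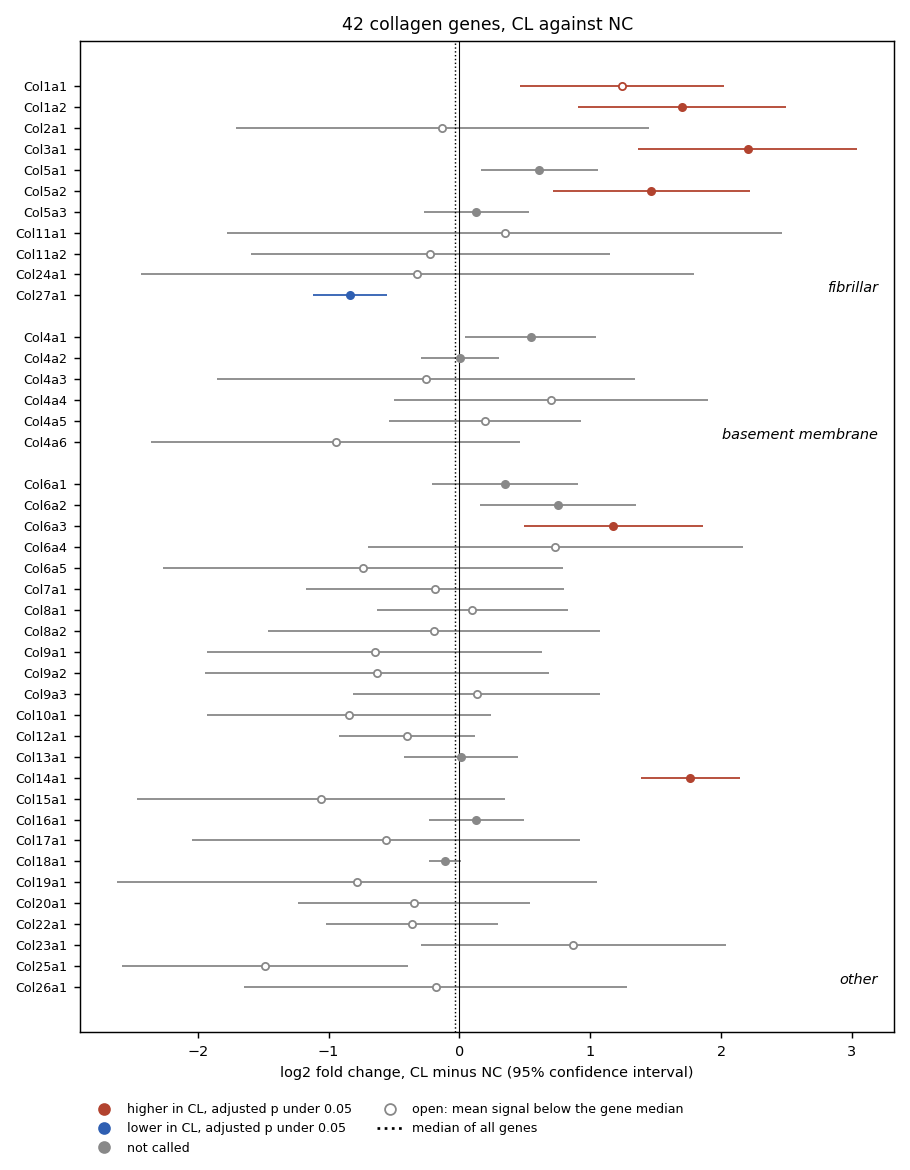
The log2 fold change of CL minus NC (horizontal axis) is plotted for each of the 42 collagens, grouped by class, with its 95% confidence interval from limma. The 6 collagens called higher sit between 1.18 and 2.20, Col27a1 lies at -0.83, and the open symbols (collagens whose mean signal was below the median of all genes) have the wider intervals.

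Col3a1, the chain of type III collagen, had log2 signals of 9.05, 11.22, 9.59, 9.66 and 9.93 in CL mice, against 7.44, 7.81, 7.32, 7.93 and 7.93 in NC mice. The groups did not overlap, and CL replicate 2 stood above the other CL mice. The difference was 2.20 (SE 0.40, adjusted p = 4.7e-04, limma), or 4.60-fold. Col1a2, one of the chains of type I collagen, had 8.90, 10.64, 9.08, 8.98 and 9.10 in CL, against 7.58, 7.52, 7.45, 7.89 and 7.76 in NC. Again all CL mice were above all NC mice, with a difference of 1.70 (SE 0.38, adjusted p = 0.0029, limma), which missed the threshold with the methods' t-test (adjusted p = 0.059). Its partner chain Col1a1, whose mean signal of 5.26 was below the median of all genes and which is given in full because it shares the triple helix with Col1a2, had 4.49, 6.75, 4.95, 5.32 and 5.47 in CL, against 4.09, 4.20, 3.73, 4.55 and 4.21 in NC. CL replicate 1 lay just under NC replicate 4, so the groups overlapped, and the difference was 1.24 (SE 0.38, adjusted p = 0.024, limma). Without CL replicate 2 it was 0.90 (adjusted p = 0.085, limma), which no longer passed.

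Col5a2, a type V chain that joins type I and III fibers, had 6.11, 7.65, 5.89, 6.50 and 6.41 in CL, against 5.19, 4.64, 4.75, 5.72 and 4.92 in NC, with no overlap and a difference of 1.47 (SE 0.36, adjusted p = 0.0061, limma). With the mean of its probe sets it was 1.16 and did not pass (adjusted p = 0.061, limma). Its partner Col5a1, described although it was not called, had 6.13, 6.70, 6.14, 6.28 and 6.10 in CL, against 6.09, 5.31, 5.55, 5.61 and 5.75 in NC. All CL mice were above all NC mice, and the difference of 0.61 (95% confidence interval 0.16 to 1.06, adjusted p = 0.054, limma) missed the threshold. It passed under some other settings, with a lowest adjusted p of 0.0013 (limma). Col5a3, the third type V chain, had a difference of 0.13 (interval -0.27 to 0.53) and overlapping groups. Col27a1, a fibrillar collagen best known from cartilage, went the other way, with 7.34, 7.07, 7.35, 7.05 and 7.26 in CL, against 8.34, 8.40, 7.48, 7.83 and 8.20 in NC. All CL mice were below all NC mice, and it fell by 0.83 on the log2 scale (SE 0.14, adjusted p = 1.4e-04, limma). On the signals as deposited, where the median of all genes itself was 0.39 higher in CL than in NC, the Col27a1 difference was -0.39 and did not pass (adjusted p = 0.17, limma). Relative to that median it was -0.78. The cartilage and other fibrillar chains Col2a1, Col11a1, Col11a2 and Col24a1 were dim, with differences of -0.32 to 0.35 and none called.

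Col14a1, a fibril-associated collagen, had 9.44, 9.78, 9.59, 9.39 and 9.46 in CL, against 7.55, 7.49, 7.52, 8.19 and 8.10 in NC. It had the smallest p of the collagens, with a difference of 1.76 (SE 0.18, adjusted p = 1.1e-06, limma), and its CL values spanned less than those of Col1a1, Col1a2 and Col3a1. Col6a3, the longest chain of type VI collagen, had 7.36, 8.85, 7.60, 7.35 and 7.57 in CL, against 6.78, 6.35, 6.13, 6.77 and 6.83 in NC, a difference of 1.18 (SE 0.33, adjusted p = 0.015, limma). All CL mice lay above all NC mice, yet without CL replicate 2 the difference was 0.90 (adjusted p = 0.052, limma). The other type VI chains Col6a2 and Col6a1 had differences of 0.75 (interval 0.16 to 1.35) and 0.35 (interval -0.21 to 0.91) and were not called. Under other settings both could pass, with lowest adjusted p-values of 0.0051 and 0.042 (limma).

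The basement membrane chain Col4a1 had 7.70, 8.91, 7.90, 8.24 and 8.01 in CL, against 7.21, 7.87, 7.63, 7.59 and 7.76 in NC. The groups overlapped, and the difference of 0.54 (interval 0.044 to 1.04, adjusted p = 0.13, limma) was not called. Under another setting it passed (adjusted p = 0.013, limma). Col4a2, whose start site lies beside that of Col4a1, had 7.34, 7.60, 7.25, 7.27 and 7.32 in CL, against 7.24, 7.35, 7.24, 7.62 and 7.31 in NC. The ranges lay almost on top of each other, with a difference of 0.004 (interval -0.30 to 0.30). The chains Col4a3 to Col4a6 were dim, with differences of -0.94 to 0.70 and wide intervals. Col18a1, a collagen of vessel and epithelial basement membranes whose end fragment is endostatin, had 11.29, 11.32, 11.29, 11.21 and 11.30 in CL, against 11.48, 11.37, 11.37, 11.38 and 11.36 in NC. Every CL mouse was below every NC mouse, but by little, and the difference of -0.11 (interval -0.24 to 0.02, adjusted p = 0.24, limma) was not called. It was 0.07 on the signals as deposited and -0.43 with median centring, so its direction depended on the scaling, and a further probe set of Col18a1 gave 0.12. Under some other settings Col18a1 was called, with a lowest adjusted p of 0.0018 (limma).

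The remaining collagens were not called in CL against NC on the probe set used, although Col16a1 passed under another setting (adjusted p = 0.030, limma). They include the anchoring fibril collagen Col7a1, the short-chain Col8a1, Col8a2 and Col10a1, the fibril-associated Col9a1 to Col9a3, Col12a1, Col16a1, Col19a1, Col20a1 and Col22a1, the transmembrane Col13a1, Col17a1, Col23a1 and Col25a1, and Col6a4, Col6a5, Col15a1 and Col26a1. The nearest to the threshold was the dim Col25a1, with 2.14, 4.58, 4.15, 3.82 and 4.21 in CL, against 5.62, 5.33, 5.76, 4.21 and 5.42 in NC, a difference of -1.49 (adjusted p = 0.055, limma). Only CL replicates 2 and 5 reached NC replicate 4, the lowest NC mouse.

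Most collagens with a called difference could be read from more than 1 probe set. The 7 called collagens had 8 further probe sets in 6 of the genes, all 8 with the same sign as the one used and 5 of them also past the adjusted p. The second Col1a1 probe set had 4.96, 6.32, 5.19, 5.20 and 5.78 in CL, against 2.02, 2.41, 3.44, 2.70 and 0.76 in NC, with no overlap and a difference of 3.23 (adjusted p = 7.5e-05, limma). It was dimmer than the one used (means 4.77 and 5.26) and less precise (SE 0.49 and 0.38), with its lowest signals in NC. A second Col1a2 probe set gave 2.77, a second Col3a1 probe set 2.25 and a second Col27a1 probe set -0.88, each past the adjusted p. Over all collagens 28 of 40 further probe sets had the sign of the one used. Outside the 7 called collagens, 3 further probe sets passed: a second Col6a2 probe set, higher by 0.98 (adjusted p = 0.0057, limma), a dim Col4a4 probe set, higher by 2.05 (adjusted p = 0.049, limma), and a dim Col20a1 probe set, which had 2.47, 1.49, 2.86, 2.09 and 1.59 in CL, against 4.22, 4.80, 5.49, 5.57 and 4.55 in NC (difference -2.83, adjusted p = 5.4e-04, limma). The Col20a1 probe set that was used gave -0.35 and was not called.

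**Figure D2:**
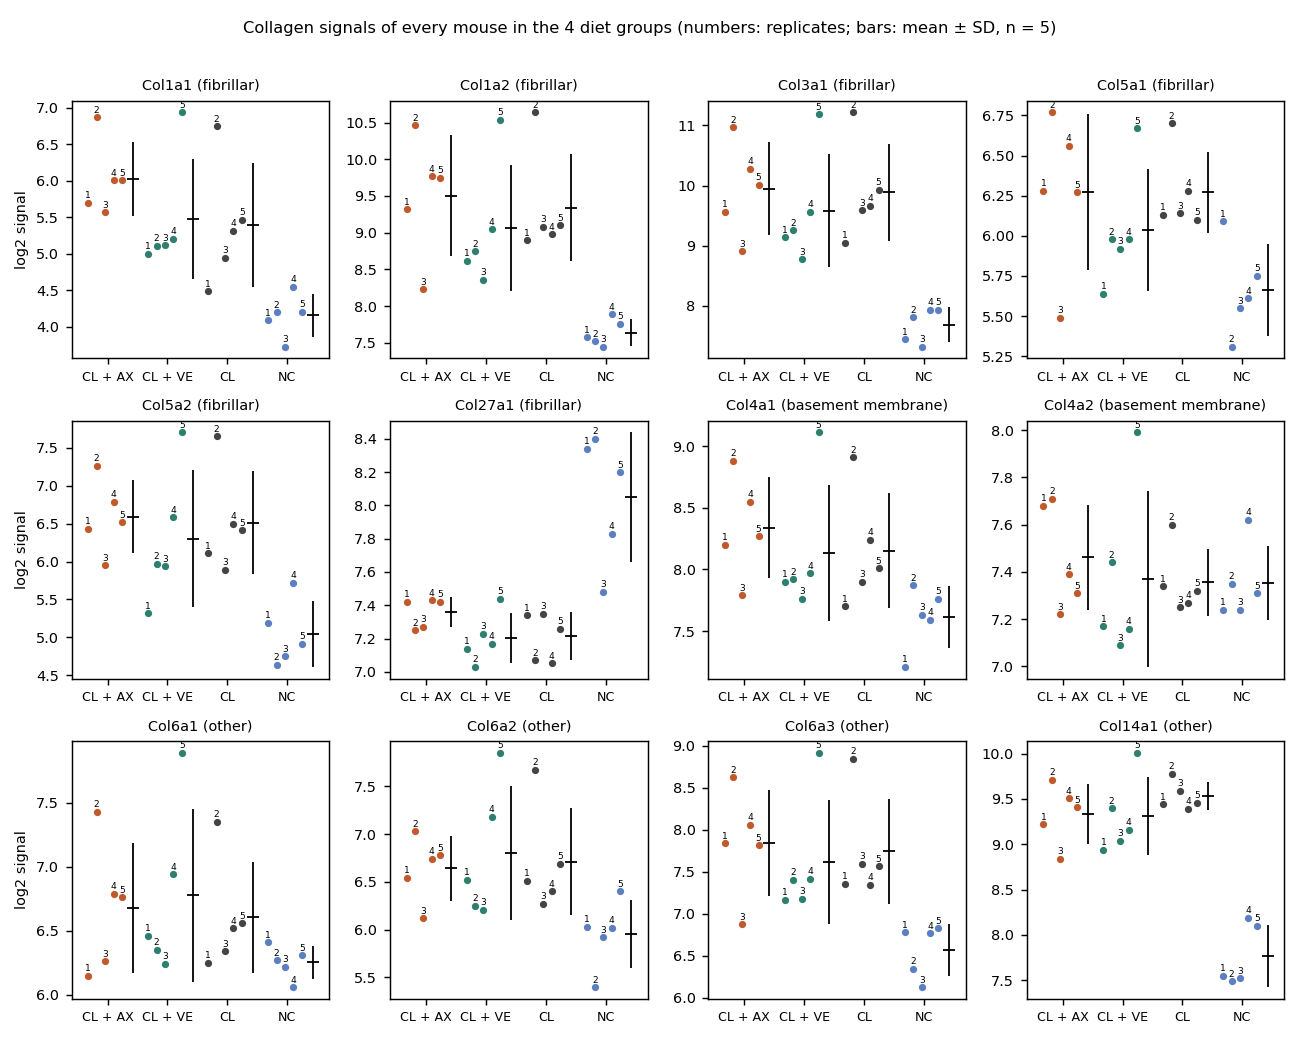
The log2 signal (vertical axis) of 12 collagens is plotted for each mouse of the CL + AX, CL + VE, CL and NC groups, with the replicate number beside each point and the group mean ± SD (n = 5) at its right. Col1a2, Col3a1, Col6a3 and Col14a1 lie higher in all mice on the 3 CL-based diets than in all NC mice, Col27a1 lies lower in all of them, and replicate 2 of CL + AX, replicate 5 of CL + VE and replicate 2 of CL are at the top of their groups in the panels other than Col27a1.

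Against NC, the supplemented groups had nearly the same collagens called as CL had. These comparisons share the NC mice with each other and with CL against NC. In CL + AX 7 of 42 collagens were higher than in NC (12.0% of all genes were) and 1 was lower (11.3% of all genes). In CL + VE 6 were higher (10.2% of all genes) and 1 was lower (7.27% of all genes), and these 7 were the same genes as in CL. CL + AX added Col4a1, which had 8.20, 8.88, 7.79, 8.55 and 8.27 in CL + AX, against 7.21, 7.87, 7.63, 7.59 and 7.76 in NC, a difference of 0.73 (adjusted p = 0.040, limma). Its CL + AX replicate 3 lay below NC replicate 2. All mice of the supplemented group lay above all NC mice in 6 collagens in CL + AX (8.32% of all genes did) and in 5 in CL + VE (7.04%), and below them in 1 collagen in CL + AX (8.58%) and 1 in CL + VE (5.22%). Col3a1 was 2.26 higher in CL + AX and 1.90 higher in CL + VE than in NC, Col1a1 1.88 and 1.32, Col14a1 1.57 and 1.54, and Col27a1 differed from NC by -0.69 and -0.85.

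No collagen was called in CL + AX against CL, in CL + VE against CL or in CL + AX against CL + VE by limma, where 0% of all genes was called in each direction. At an unadjusted p under 0.05 there was 1 collagen in the first comparison (8.05% of all genes), 0 in the second (7.55%) and 2 in the third (10.2%), and by the methods' t-test with the same adjustment 0 were called in each. The groups overlapped in every collagen in all 3 comparisons, while 0.956% of all genes lay wholly above and 1.01% wholly below CL in CL + AX, 1.04% and 0.555% in CL + VE, and 0.951% and 1.58% lay above and below CL + VE in CL + AX. Col3a1 had 9.56, 10.97, 8.91, 10.28 and 10.01 in CL + AX and 9.14, 9.26, 8.77, 9.56 and 11.19 in CL + VE, against the CL values of 9.05 to 11.22 given above. Both supplemented groups spanned about the same range as CL. The difference from CL was 0.06 in CL + AX (interval -0.78 to 0.90) and -0.31 in CL + VE (interval -1.15 to 0.53), so the intervals reach from -0.78 to 0.90 around a value near 0 in CL + AX and further down in CL + VE.

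Col1a1 had 5.70, 6.87, 5.57, 6.01 and 6.01 in CL + AX and 5.0, 5.11, 5.12, 5.21 and 6.94 in CL + VE, against 4.49, 6.75, 4.95, 5.32 and 5.47 in CL. In CL + AX all 5 mice were above 4 of the 5 CL mice, and the difference was 0.64 (interval -0.14 to 1.42, adjusted p = 0.78, limma). In CL + VE it was 0.08 (interval -0.70 to 0.86). The second Col1a1 probe set gave 0.17 for CL + AX against CL. For Col1a2 the values were 9.32, 10.46, 8.23, 9.77 and 9.75 in CL + AX and 8.62, 8.75, 8.36, 9.05 and 10.54 in CL + VE, with differences from CL of 0.16 (interval -0.63 to 0.96) and -0.27 (interval -1.07 to 0.52). The replicates of each group were wider apart than these differences.

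Narrower bounds came from collagens that varied less between mice. Col14a1 had 9.22, 9.71, 8.84, 9.51 and 9.41 in CL + AX and 8.94, 9.40, 9.04, 9.16 and 10.01 in CL + VE, which differed from CL by -0.20 (interval -0.58 to 0.18) and -0.23 (interval -0.61 to 0.15). Col27a1 had 7.42, 7.25, 7.27, 7.43 and 7.42 in CL + AX and 7.14, 7.03, 7.23, 7.17 and 7.44 in CL + VE, with differences of 0.14 (interval -0.14 to 0.42) and -0.01 (interval -0.29 to 0.27). Both genes had differences from CL that were smaller than the distance from CL to NC. Col18a1, with differences from CL of -0.02 in CL + AX and 0.12 in CL + VE, had an unadjusted p of 0.030 between CL + AX and CL + VE (difference -0.14, adjusted p = 0.50, limma). It was called there only with median centring, where 6.17% of all genes were. Col5a2 and Col6a3 differed from CL by 0.08 and 0.10 in CL + AX and by -0.21 and -0.13 in CL + VE, none of them called.

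**Figure D3:**
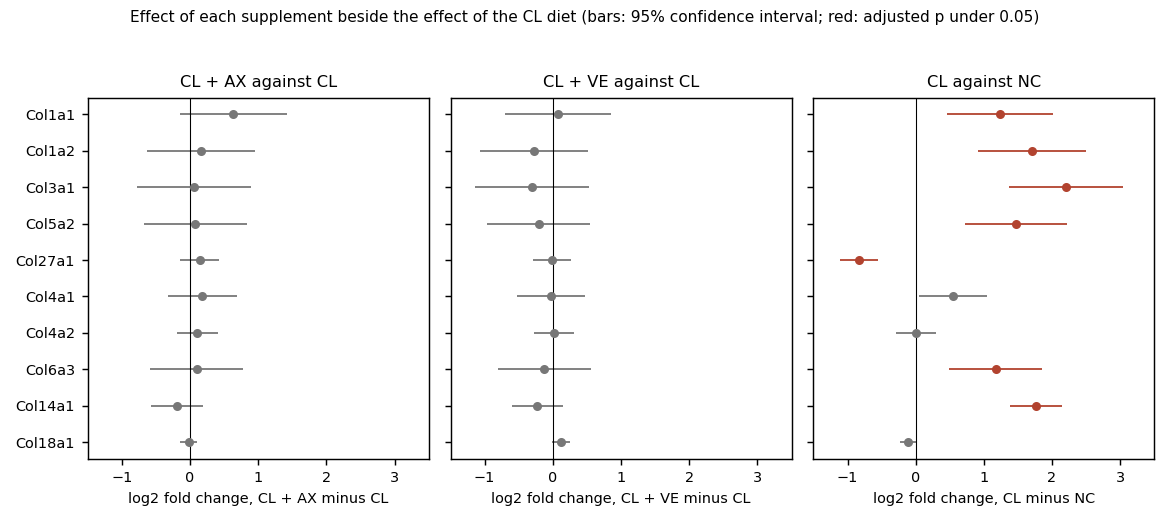
Log2 fold changes (horizontal axes) of 10 collagens are plotted for CL + AX minus CL, CL + VE minus CL and CL minus NC, on the same scale, with 95% confidence intervals from limma. Red points, those with an adjusted p under 0.05, occur only in the panel of CL minus NC, and in the panels of the supplements the points lie between -0.31 and 0.64.

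Within each group on a CL-based diet, 1 mouse stood above the others in most of the well-measured collagens. These mice were CL + AX replicate 2, CL + VE replicate 5 and CL replicate 2, picked out after the values were seen. Col3a1 was 10.97, 11.19 and 11.22 in them, and Col6a3 8.63, 8.92 and 8.85. They were the highest of their groups in 17, 21 and 20 of the 42 collagens (20.2%, 23.8% and 24.7% of all genes). Among the 15 at or above the gene median it was 10, 12 and 12 (19.1%, 26% and 25.6% of all genes at or above it). In 12 collagens (28.6%) all 3 of them were the highest of their groups, beside 4.30% of all genes. Because the mice were picked for high collagen signals, these shares describe the choice and are not a test. The 12 collagens were the 5 type I, III and V chains Col1a1, Col1a2, Col3a1, Col5a1 and Col5a2, the type IV chains Col4a1 and Col4a2, the type VI chains Col6a1, Col6a2 and Col6a3, Col14a1 and the dim Col15a1.

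Col4a1 and Col4a2 shared these mice although their group means behaved differently: Col4a2 was 7.71, 7.99 and 7.60 in the 3 mice, and the other mice of their groups had 7.09 to 7.68. Col13a1, a transmembrane collagen, had the opposite pattern, with 5.20, 4.86 and 5.34, each the lowest of its group, and so did the dim Col6a5. For 510 of all genes (2.80%) these 3 mice were all the lowest. Col5a3, Col18a1 and Col27a1 did not have the 3 mice at the top together. At the low end, CL + AX replicate 3 was the lowest of its group in 10 of the 15 collagens at or above the gene median (21.8% of all genes at or above it), with 8.91 for Col3a1 and 8.23 for Col1a2. In the NC group, replicate 4 was the highest in 16 of the 42 collagens (20.3% of all genes), with Col5a2 at 5.72 and the other NC mice at 4.64 to 5.19.

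**Figure D4:**
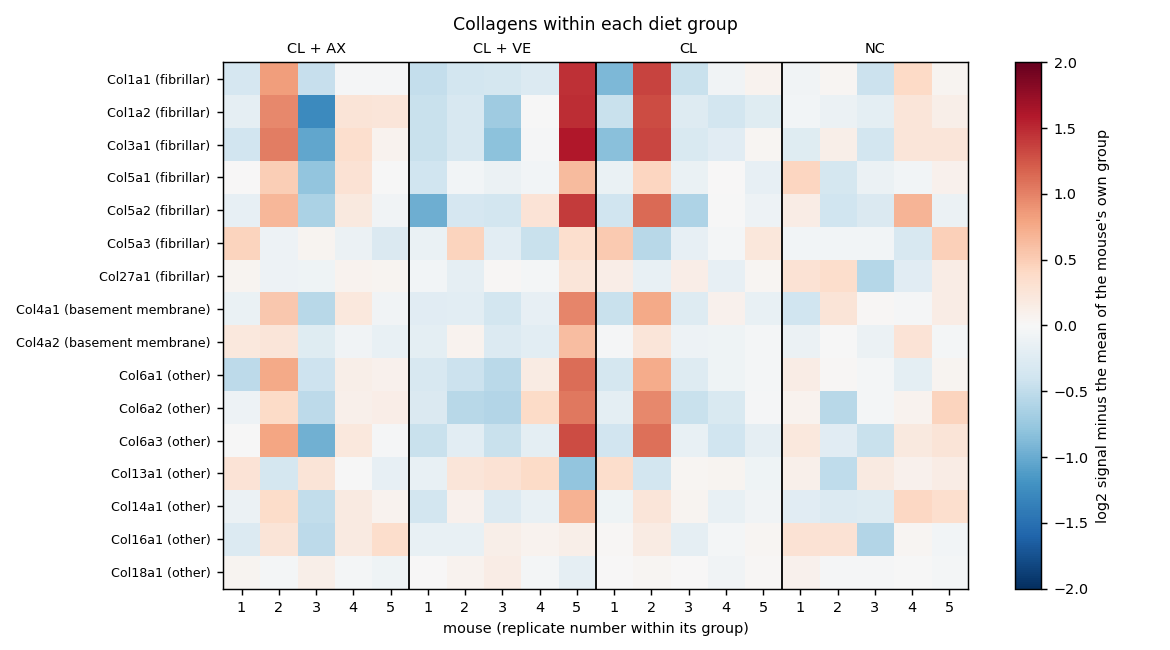
Each cell gives the log2 signal of a collagen (rows, named with their class) in a mouse (columns, by replicate number) minus the mean of that mouse's own group, for the 15 collagens at or above the gene median and Col1a1. Red columns stand at replicate 2 of CL + AX, replicate 5 of CL + VE and replicate 2 of CL for Col1a1, Col1a2, Col3a1, Col5a1, Col5a2, Col4a1, Col4a2, Col6a1, Col6a2, Col6a3 and Col14a1, with Col5a1 at 6.77, 6.67 and 6.70 in these mice, while Col13a1 is blue there.

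When all 3 of these mice were left out, 8 collagens were called in CL against NC (the 7 given above and Col25a1, lower, beside 20.1% of all genes), 8 in CL + AX against NC (20.5% of all genes) and 7 in CL + VE against NC (15.1%), and 0 in the 3 comparisons among the CL-based diets. Left out 1 at a time, they moved the differences between a supplemented group and CL, and Col3a1 in CL + VE against CL ranged from -0.71 without CL + VE replicate 5 to 0.03 without CL replicate 2. For Col1a2 in the same comparison the values were -0.64 and 0.05. The direction of these uncalled differences therefore turned with a single mouse.

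Markers of other liver cells were read from the same arrays. Over all genes 12.0% were higher and 11.3% lower in CL than in NC. Of 10 markers of hepatic stellate cells and myofibroblasts, 7 were higher in CL than in NC and none was lower, with a summed linear signal of 3225 to 4390 in CL against 1627 to 3048 in NC. The highest sums of this list were in CL + AX replicate 2 (4197), CL + VE replicate 5 (5190), CL replicate 2 (4390) and NC replicate 4 (3048), the mice named above. Marker by marker, each of the first 3 was the highest of its group in 6 of 10. All 3 were the highest together in 3 of 10 (Cygb, Pdgfrb and Reln), beside 4.30% of all genes. This was not particular to that list: it was so for 2 of 6 macrophage markers (Cd68 and Lyz2) and 1 of 5 portal fibroblast markers (Eln). It was so for none of the endothelial, cholangiocyte, mesothelial and hepatocyte markers. The endothelial sum was the lowest of its group in CL + AX replicate 2 (1670) and CL + VE replicate 5 (1690), but not in CL replicate 2 (2110). Of 6 macrophage markers 5 were higher, with sums of 5030 to 11639 in CL against 1116 to 3006 in NC, and the highest were CL + AX replicate 4, CL + VE replicate 5, CL replicate 2 and NC replicate 3. Sinusoidal and vascular endothelium had 5 of 8 markers higher, cholangiocytes 1 of 5, portal fibroblasts 0 of 5 and mesothelium 0 of 4, and 2 of 7 hepatocyte markers were lower. In lists this short, counts of 0, 1 or 2 cannot be told from the shares of all genes. No marker of these lists was called among the CL-based diets. The summed hepatocyte signal of 61343 to 68097 in CL, against 65648 to 70952 in NC, is that of the labelled tissue's main cell type, and the part of any cell type in the collagen differences was not tested. The log2 3′ over 5′ ratio of the control RNA Dap was 1.81 in CL + VE replicate 5 and 0.77 to 1.04 in the other CL + VE mice, and its part in the values of that mouse was not tested.

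The genes that act on collagen did not move as 1 group. Of 20 measured genes for the modification, folding and export of procollagen, 4 were higher and 3 lower in CL than in NC, with a median of -0.06 beside -0.04 for all genes. Over all genes 12.0% were higher and 11.3% lower, and the shares of this list (20% and 15%) and the share lower in the next (9.09%) are near these. Crtap, part of a prolyl hydroxylase complex, was higher by 0.63, Tmem38b, an ion channel of the endoplasmic reticulum, by 0.36, and the dim Mia2, which helps load large cargo for export, by 1.10. Its relative Mia3, which carries procollagen out of the endoplasmic reticulum, fell by 0.32 and Plod3, a lysyl hydroxylase, fell by 0.34, all 5 with an adjusted p under 0.05 in limma. The CL and NC groups overlapped in Tmem38b, Mia2 and Plod3. Of 11 genes for cleavage and cross-linking 3 were higher and 1 lower, with a median of 0.28. Lox, a lysyl oxidase that cross-links fibers, had 3.46, 5.81, 4.34, 4.39 and 4.93 in CL, against 1.97, 0.56, 2.45, 0.03 and 3.06 in NC (difference 2.97, SE 0.60). Its mean of 3.83 was below the median of all genes, so the size of this difference is imprecise. Loxl1 was higher by 1.97 and Pcolce2, an enhancer of procollagen cleavage, by 1.63 (SE 0.50), with overlapping groups in Pcolce2. Bmp1, the protease that cuts the C-terminal end off procollagen, was lower, with 8.49, 8.32, 8.36, 8.24 and 8.11 in CL, against 8.69, 9.11, 9.02, 9.13 and 8.99 in NC, and it fell by 0.68 (adjusted p = 4.1e-05, limma). Tgm2, a transglutaminase, had 0.48 and was not called (adjusted p = 0.077, limma).

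Of 14 genes of collagen breakdown and its inhibitors 6 were higher (42.9%) and none lower, beside 12.0% and 11.3% of all genes, with a median of 0.62. Timp1, an inhibitor of matrix metalloproteinases, had 4.90, 7.05, 5.28, 5.55 and 5.76 in CL, against 3.65, 3.57, 3.54, 3.74 and 3.32 in NC, with no overlap and a difference of 2.15 (adjusted p = 6.9e-04, limma). The collagenase Mmp13 was higher by 2.88, the gelatinase Mmp2 by 0.83, Timp3 by 0.59 and the lysosomal protease Ctsl by 0.30, so proteases and inhibitors were higher in the same livers. Mmp13 was dim (mean 4.06), and its difference was imprecise (SE 0.73). In Timp3 the CL and NC groups overlapped. Of 10 collagen receptors 5 were higher (50%, beside the same 12.0% of all genes) and none lower, with a median of 0.59. The matrix receptor Cd44 was higher by 2.34, the mannose receptor Mrc1 by 1.36 and the inhibitory receptor Lair1 of immune cells by 1.60. The kinases Ddr1 and Ddr2 were higher by 1.48 and 0.85 (SE 0.46 and 0.26), and in both the CL and NC groups overlapped.

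Fibril partners, the proteins that coat or organize fibers, had 9 of 14 higher (64.3%) and none lower, beside 12.0% and 11.3% of all genes, with a median of 0.94. Among them were the small proteoglycans Dcn (1.14), Bgn (0.89) and Lum (1.46), the collagen-binding Sparc (1.32) and Postn (0.91, with overlapping groups). Dcn had 11.89, 12.24, 11.77, 11.90 and 11.77 in CL, against 10.70, 10.50, 10.65, 11.27 and 10.76 in NC, with no overlap. Basement membrane partners had 6 of 14 higher and 2 lower (42.9% and 14.3%, the latter near the 11.3% of all genes), with a median of 0.65. No type IV chain was called on the probe set used at the main settings. A further Col4a4 probe set passed (adjusted p = 0.049, limma), and so did Col4a1 under another setting (adjusted p = 0.013, limma). The laminin chains Lama2, Lama4 and Lamc1 were higher by 2.65, 1.35 and 0.73 and the linker Nid1 by 1.65. Lama2 and Lama4 were dim (means 4.54 and 4.96, SE 0.57 and 0.33), and in both the CL and NC groups overlapped. Lamb3, a laminin chain of epithelia, was lower, with 4.91, 5.02, 4.69, 5.32 and 5.01 in CL, against 6.75, 6.91, 6.36, 7.06 and 6.84 in NC, and it fell by 1.79 (adjusted p = 4.7e-07, limma).

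None of these genes was called among the CL-based diets. The 3 mice with the highest collagen signals were also the highest of their groups in 9 of 14 fibril partners, 6 of 14 genes of breakdown and its inhibitors and 4 of 11 genes of cleavage and cross-linking, beside 4.30% of all genes. In modification, folding and export this was so for 2 of 20 genes, among the receptors for 1 of 10 and among the basement membrane partners for 3 of 14. Timp1 was 7.15, 7.15 and 7.05 in CL + AX replicate 2, CL + VE replicate 5 and CL replicate 2, and Lox was 5.93, 5.96 and 5.81. The other mice of the 3 groups had 4.84 to 6.49 for Timp1 and 3.25 to 5.0 for Lox.

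**Figure D5:**
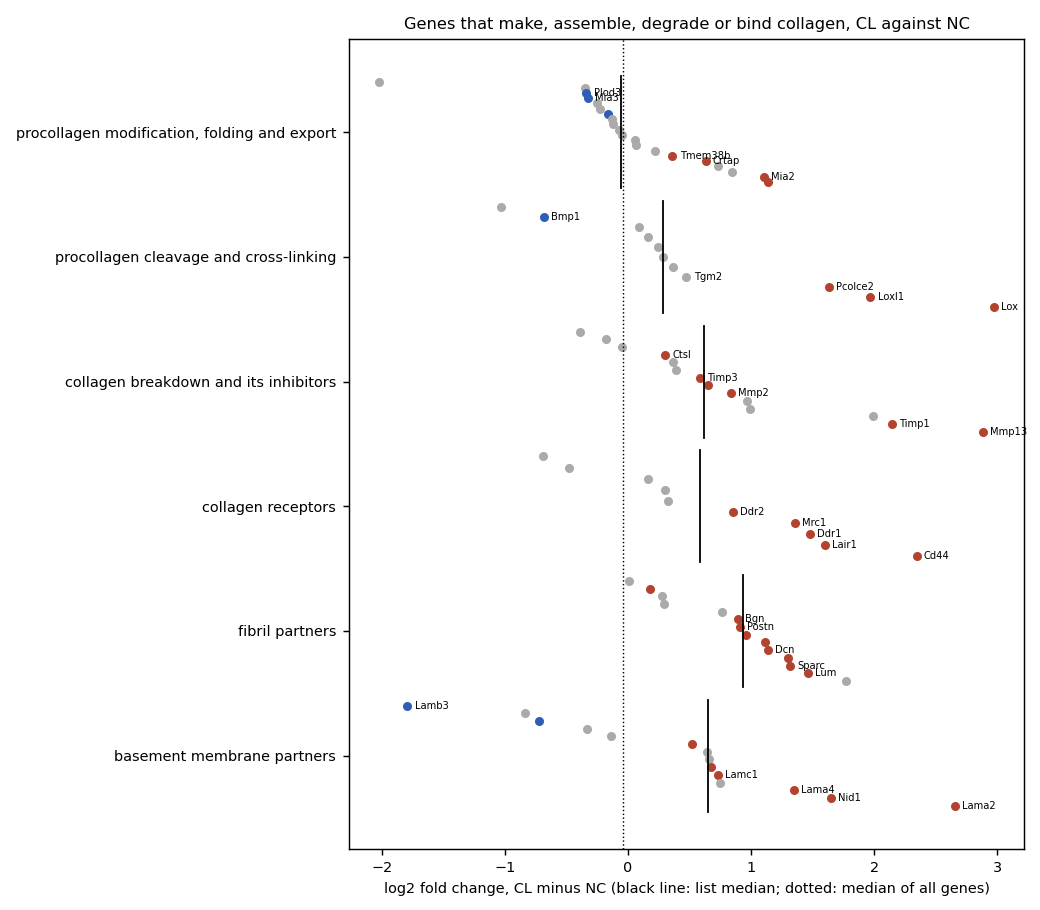
Each point is a gene of 1 of 6 lists (rows), placed by its log2 fold change of CL minus NC (horizontal axis). Red and blue mark genes with an adjusted p under 0.05 that were higher or lower in CL, black lines the list medians (-0.06 to 0.94) and the dotted line the median of all genes (-0.04).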

How the data were processed

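Liver RNA was labelled with a 3′ IVT kit and hybridized to Affymetrix Mouse Genome 430 2.0 arrays. The authors computed the deposited signal intensities with MAS5 (1 linear value per probe set) and analysed them in Subio, by Welch's ANOVA and t-test. Array medians of the deposited values differed. Control probe sets (64) were removed, the log2 values of the other 45037 were quantile normalized and fitted in limma 3.58.1 (R 4.3.3) with 1 model of the 4 groups (16 residual degrees of freedom) and a mean-variance trend, and p-values were adjusted by Benjamini-Hochberg over all 45037. A gene was read from its brightest probe set among the 34945 that name 1 gene by GEO's platform annotation (932 name several, 9160 none), and 34741 of these matched RefSeq by gene ID without a change of symbol. The fit was tested on simulated data with known changes before use.

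The members, classes and lists were chosen with earlier results of these data known, and supply no independent evidence. Values of every mouse are given for called collagens at or above the gene median, and the 5 smallest p-values of each list are named. Col1a1, Col4a1, Col4a2, Col5a1, Col18a1, Col25a1 and further probe sets were added after their values were seen. Detection calls were not analysed here. Nothing says how arrays were batched, and 5 arrays a group limit the precision. No pair of arrays was identical (highest correlation 0.94).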

Additional observations from a re-analysis of the deposited data

Results flagged for a closer look

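In 64 sets of 5 values (16 collagens in 4 groups), 9 had 1 mouse far from the other 4, by Dixon's test at the 95% level (ratio above 0.71). Chance alone marks about 1 in 20 such sets. The affected sets are not independent, since the same mouse recurs in several of them.

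CL + VE replicate 5 stood apart in Col1a1 at 6.94 (other CL + VE mice 5.0 to 5.21), in Col4a1 at 9.11 (7.76 to 7.97) and in Col6a3 at 8.92 (7.17 to 7.42). CL replicate 2 stood apart in Col1a2 at 10.64 (other CL mice 8.90 to 9.10), in Col4a2 at 7.60 (7.25 to 7.34), in Col6a1 at 7.35 (6.25 to 6.56) and in Col6a3 at 8.85 (7.35 to 7.60). In the NC group Col13a1 was 5.19 in replicate 2 (other NC mice 5.79 to 5.88) and Col18a1 was 11.48 in replicate 1 (11.36 to 11.38). No collagen was set apart in this way in the CL + AX group.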

How the results depend on the processing

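The number of collagens called in CL against NC was 7 and came to 11 on the signals as deposited (all higher, beside 6 of 7 in the values above), 2 with the methods' t-test after Benjamini-Hochberg (Col3a1 and Col14a1), and 6 to 10 when 1 mouse at a time was left out. The share of all genes called was 23.3%, with 29.4%, 10.8% and 19.9% to 23.9% under these settings. In CL + AX against NC it was 8, with 14 on the signals as deposited (all higher), 4 with the methods' t-test (Col1a1, Col3a1, Col5a2 and Col14a1) and 7 to 9 on leaving out a mouse, beside 23.3%, 43.9%, 12.5% and 19.3% to 23.9% of all genes. In CL + VE against NC it was 7, with 1 with the methods' t-test (Col14a1) and 4 to 8 on leaving out a mouse (4 without NC replicate 3 and also without CL + VE replicate 5), beside 17.5%, 5.01% and 14.7% to 18.6% of all genes. CL + AX against CL + VE had 0 calls, 1 with median centring (Col18a1, lower) and 0 on the signals as deposited. The shares of all genes were 0%, 6.17% (nearly all lower) and 3.77% (nearly all higher), so calls in this comparison depended on the scaling. On the signals as deposited the median of all genes shifted by 0.39 in CL against NC and by 0.60 in CL + AX against NC, and with median centring by -0.11 in CL against NC. In CL against NC the call of Col1a1 was also lost after adding 16 to the signals (0.81), that of Col5a2 with the mean of probe sets (1.16) and that of Col27a1 on the signals as deposited (-0.39). Other collagens gained a call under at least 1 setting. Their lowest adjusted p by limma was 0.0013 (Col5a1), 0.0051 (Col6a2), 0.013 (Col4a1), 0.030 (Col16a1), 0.042 (Col6a1) and 0.0018 (Col18a1). The cause of the other changes was not tested.

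Relative to all genes, the median of the fibrillar collagens in CL against NC was 0.38, with 1.26 when only the brighter of all probe sets were read (fewer, brighter members), -0.10 with the mean of a gene's probe sets and 0.14 to 0.68 on leaving out a mouse. That of the other collagens was -0.15, with -0.0444 after adding 16 to the signals, 0.0254 among the brighter probe sets and -0.18 to -0.07 on leaving out a mouse.

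Of the single collagens, differences that were uncalled in the values above turned sign. Among them, Col18a1 in CL against NC was called under some other settings (lowest adjusted p 0.0018, limma). Col18a1 in CL against NC was 0.0696 on the signals as deposited and 0.0046 with the mean of probe sets, Col4a2 -0.03 with median centring and -0.0569 without the 3 mice, and Col5a3 -0.44 with the mean of probe sets. In CL + VE against CL, Col1a1 was -0.21 on the signals as deposited and Col27a1 0.0286 with median centring and 0.0044 with the mean of probe sets. In CL + AX against CL, median centring gave Col3a1 -0.10, Col5a2 -0.0213 and Col6a3 -0.0335. On leaving out 1 mouse, CL against NC ranged from -0.12 to 0.10 for Col13a1, -0.017 to 0.20 for Col16a1, -0.0565 to 0.0709 for Col4a2 and -0.0024 to 0.27 for Col5a3. CL + AX against CL ranged from -0.0757 to 0.49 for Col1a2, -0.20 to 0.39 for Col3a1, -0.0872 to 0.36 for Col5a2 and -0.0967 to 0.38 for Col6a3. CL + VE against CL ranged from -0.29 to 0.42 for Col1a1, -0.64 to 0.0513 for Col1a2, -0.073 to 0.0308 for Col27a1, -0.71 to 0.0266 for Col3a1, -0.56 to 0.0769 for Col5a2 and -0.45 to 0.15 for Col6a3.

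Replicate numbers did not pair the mice: over 30 pairs of equally numbered mice the correlation of deviations from the group means was -0.03 to 0.04. With the replicate number as a block, 7 collagens were called in CL against NC (23.7% of all genes), 8 in CL + AX against NC (23.8%) and 8 in CL + VE against NC (18%). In the other comparisons 0 were called (at most 0.011% of all genes). Leaving out the 3 mice was chosen after the data were seen.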
